A study of Mus musculus with 8 samples.

Results

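The genes described are 10 heat shock chaperone genes, Hspa1a, Hspa1b, Hspa8, Hsph1, Dnajb1, Hsp90aa1, Hspb1, Bag3, Hspe1 and Hspd1, chosen by symbol among the 24052 gene symbols that were counted in each RNA-Seq library. Their counts were compared in a medullary thymic epithelial cell (mTEC) line of C57BL/6 origin, mTEC 3.10, as the wild type (WT), and in E6, 1 clone of the same line in which Crispr-Cas9 had been directed at Aire, the gene of a transcriptional regulator of self-antigen expression in the thymus. The labels give E6 as Aire +/-, whereas the study describes mutations in both alleles, so the clone is called E6 here. Each cell type was sampled before adhesion and after co-culture for 12 h with thymocytes of C57BL/6 mice at 50 thymocytes per mTEC, giving 2 libraries in each of 4 conditions. Per the labels, cultures lasted 24 h in replicate 1 of E6, before as well as after adhesion, and in replicate 2 of WT after adhesion, while the remaining libraries came from cultures of 12 h. In 3 of the 4 conditions the 2 libraries thus differed in culture time, and the labels do not say whether those of WT before adhesion came from separate cultures. The p-values measure the spread between these libraries, culture time included, and a difference between WT and E6 cannot be told apart from a difference between the line and 1 clone. After co-culture, fewer mTECs among the cells collected and less RNA per mTEC cannot be told apart.

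Heat shock chaperones bind proteins that are unfolded or newly made and keep them from aggregating. Hsp70 proteins such as HSPA1A, HSPA1B and HSPA8 work with J-domain proteins such as DNAJB1, which start their ATP cycle, and with exchange factors such as HSPH1 and BAG3, while HSP90AA1 takes over clients at a later stage of folding. When unfolded proteins accumulate, the transcription factor HSF1 is released from chaperones, forms trimers and binds heat shock elements, alternating repeats of GAA and TTC, at the genes of the inducible chaperones. Some members, Hspa8 above all, are also expressed at high levels in cells that are not stressed.

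The letters of heat shock elements before the start sites are given to show which members share them. The letters GAANNTTC or TTCNNGAA, a pair of neighbouring units of such an element, were searched on both strands of the 250 bases before each start site in the RefSeq promoter windows of GRCm38.p6. They occurred in 12.84% of all 32851 windows. Capitals mark the matches, and each sequence reads 5′ to 3′ on the strand of its gene.
Hspa1a, chr17:34972243-34972270, minus strand: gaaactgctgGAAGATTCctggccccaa
Hspa1b, chr17:34959325-34959352, minus strand: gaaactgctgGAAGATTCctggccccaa
Hspb1, chr5:135887792-135887839, plus strand: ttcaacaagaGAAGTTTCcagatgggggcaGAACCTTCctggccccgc
Hsph1, chr5:149636356-149636375, minus strand: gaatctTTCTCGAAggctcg
Hspe1, chr1:55088053-55088082, plus strand: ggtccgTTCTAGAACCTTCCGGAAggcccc
Hspd1, the same positions, minus strand: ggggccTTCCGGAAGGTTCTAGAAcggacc
Hspa1a and Hspa1b held the match at the same distance from their start sites, 97 to 104 bases upstream, and their 250 upstream bases differed at 3 positions. The match of Hspe1 and Hspd1 is 1 stretch of 4 alternating units, read from opposite strands, that lies 72 to 89 bases before the start site of Hspe1 and 127 to 144 bases before that of Hspd1. It overlaps an annotated exon of Hspd1, and the match of Hsph1 overlaps an annotated exon of Hsph1. Such a run of 4 units occurred in 7 of the 32851 windows (0.0213%), including those of Hspe1 and Hspd1. Neither pair of units occurred in the windows of Dnajb1 and Bag3, nor in that of the other start site of Hspd1. The search did not cover Hspa8 and Hsp90aa1. A match of letters is a description and not a measured binding site.

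Each library held 13506610 to 20145154 counts on genes. Levels are given as CPM, counts scaled to a common library size, and 3 counts corresponded to 0.149 to 0.222 CPM, which covers counting error only. All 10 members were among the 11672 genes that passed the filter on low counts. Aire itself had 0 counts in 6 libraries and 3 counts in replicate 2 of WT after adhesion and in replicate 2 of E6 after adhesion, which is too few to check the labels of the clone. Replicate 1 of WT after adhesion stood apart from the other libraries. It had 66.7% of its counted reads on genes, against 75.7% to 78.8% elsewhere. Its log2 CPM, relative to the mean of all libraries, fell by 0.445 per 10% of GC content, against slopes between -0.016 and 0.139 in the others. These slopes share that mean and are not independent of each other. Summed over the 16 thymocyte marker genes analysed here, of 25 listed, the level was 0.547 to 0.590 CPM in WT before adhesion, 12.5 to 16.4 CPM in WT after adhesion, 0.268 to 1.04 CPM in E6 before adhesion and 87.6 to 109 CPM in E6 after adhesion, and 9 of the 16 were at 0 in each group before adhesion. The highest of them were Dntt, at 18.7 and 13.4 CPM, and Ptprc, at 18.3 and 14.0 CPM, in E6 after adhesion. The part of this thymocyte RNA in the comparisons was not tested. The 14 markers of thymic epithelial cells summed to 4236 to 5430 CPM over the libraries, led by Krt8 at 1378 to 2041 CPM, with Epcam at 537 to 643 CPM, whereas Fezf2, Cd80 and Psmb11 were at 0.24 CPM or less like Aire. The 6 markers of macrophages and dendritic cells summed to 50.5 to 80.0 CPM, most of it Csf1r at 39.2 to 65.9 CPM, also before adhesion. Of the others, Lyz2 and Emr1 were at 0 CPM in each library before adhesion. After adhesion Lyz2 was at 0.851 and 1.16 CPM in WT and 6.52 and 5.26 CPM in E6, and Emr1 at 0.284 and 0.242 CPM in WT and 2.21 and 1.25 CPM in E6. The part of such RNA in the comparisons was not tested. The markers of fibroblasts summed to 1.125 to 3.87 CPM, and those of B cells and red cells to at most 0.497 and 0.182 CPM.

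None of the 10 members passed the test in any of the 7 comparisons, by edgeR's quasi-likelihood test with a Benjamini-Hochberg adjusted p under 0.05 and a fold change of at least 1.5. DESeq2 called 0 of the 10 in each as well. Among all tested genes, DESeq2 called 1410 between E6 and WT in the average of the conditions, 841 before adhesion and 1354 after it. DESeq2 also called 64 for adhesion in WT, 296 for adhesion in E6, 337 for adhesion averaged and 3 for the difference of the adhesion effects. With edgeR, the rule called 11.3% of all tested genes between E6 and WT in the average of the conditions, 5.01% in the libraries before adhesion and 8.91% in those after it. It called 0% for adhesion in WT, 2% for adhesion in E6, 1.89% for adhesion averaged over both cell types, and 0% for the difference of the adhesion effects between E6 and WT. At an unadjusted p under 0.05 there were 873 genes (7.48%) for adhesion in WT and 297 (2.54%) for the difference of the effects, as there were 29.7% of all genes between E6 and WT after adhesion and 9.89% for adhesion averaged. The members with an unadjusted p under 0.05 were Hspe1 and Bag3 between E6 and WT after adhesion, and Hspa1a for adhesion in WT and averaged over both cell types. The median log2 fold change of the members was 0.22 for adhesion in WT, with 9 of 10 above 0, against 0.02 for all tested genes, and without replicate 1 of WT after adhesion it was 0.05, with 6 of 10 above 0. Without replicate 2 it was 0.14, with 8 of 10 above 0. It was -0.05 for adhesion in E6, with 3 of 10 above 0, against -0.02 for all, and -0.11 without replicate 1 of E6 before adhesion. For E6 against WT the median was -0.06 before adhesion, against 0.00 for all genes, and -0.30 after adhesion, against -0.02 for all, with 9 of 10 members below 0 in the latter. Without replicate 1 of WT after adhesion that median was -0.17 with 7 of 10 below 0, and without replicate 2 it was -0.21 with 6 of 10 below 0. The median before adhesion turned to 0.02 without replicate 1 of WT before adhesion. The 10 values of the difference of the adhesion effects were all below 0, with a median of -0.24 against -0.01 for all genes, and 7 of 10 were below 0 when either library of WT after adhesion was left out. These comparisons share libraries, so their directions are not independent of each other.

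**Figure D1:**
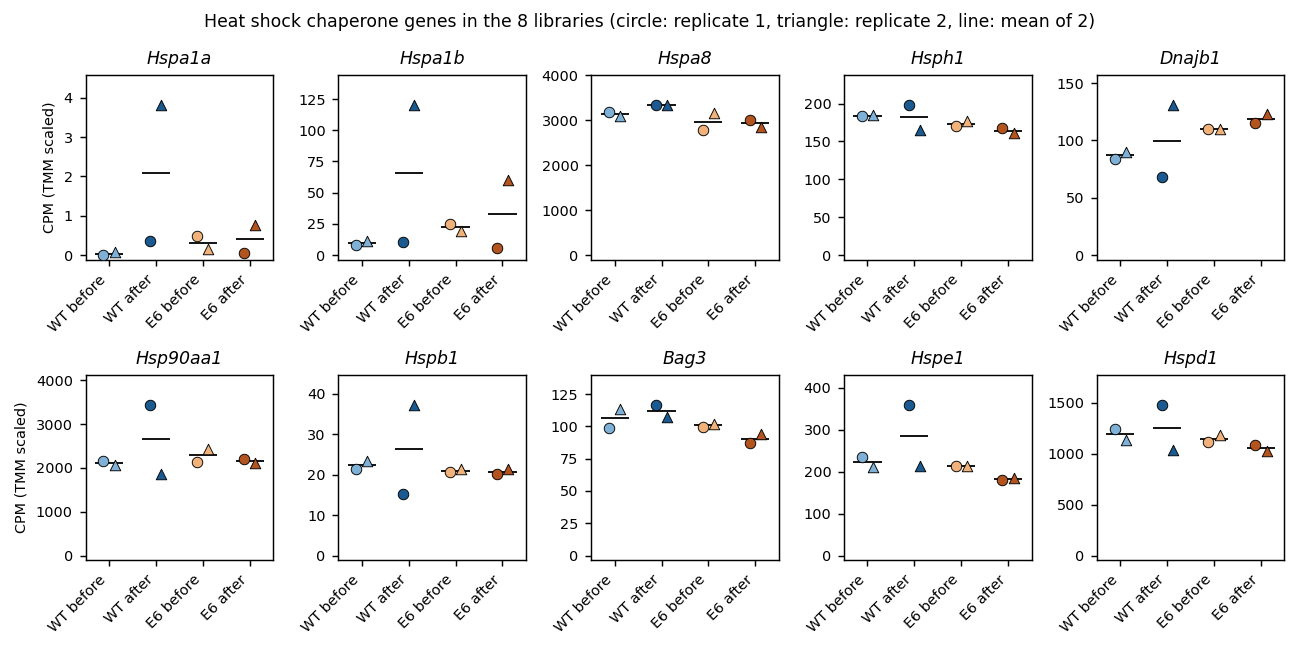
Level of each of the 10 genes (vertical axes, CPM scaled by library, each starting near 0) in WT and E6 libraries before and after adhesion. Circles are replicate 1, triangles replicate 2 and lines the mean of both. In WT after adhesion, replicate 2 is the highest library for Hspa1a, Hspa1b, Dnajb1 and Hspb1, and replicate 1 is the highest for Hspa8, Hsph1, Hsp90aa1, Bag3, Hspe1 and Hspd1.

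Levels were also compared per length, as TPM, in which counts are divided by the length of all annotated exons of a gene before scaling. That length covers all transcripts of a gene, so the order need not be that of single transcripts. It was 7266 bases for Hsph1 and 2562 bases for Bag3, which averaged 176 and 102 CPM. On the TPM scale the constitutive and the inducible Hsp70 genes stood at opposite ends. Hspa8 was at 2893 TPM on average over the 8 libraries and Hsp90aa1 at 2352 TPM, followed by the mitochondrial pair Hspd1 at 1763 TPM and Hspe1 at 617 TPM. Bag3 was at 160 TPM, Dnajb1 at 131 TPM, Hsph1 at 97.2 TPM, Hspb1 at 87.9 TPM, Hspa1b at 47.0 TPM and Hspa1a at 0.969 TPM. Neighbours in this order overlapped across libraries for Hspa8 and Hsp90aa1, for Hsp90aa1 and Hspd1, and throughout from Bag3 to Hspa1b, whereas each library of Hspd1 was above each of Hspe1, and each of Hspe1 above each of Bag3. The 10 genes together took 0.664% to 0.847% of the counts, with the highest share in replicate 1 of WT after adhesion. The spread over the 8 libraries, as a coefficient of variation of the CPM, was 6.74% for Hspa8, 7.03% for Hsph1, 9.62% for Bag3 and 12.8% for Hspd1, below the 18.4% of the median tested gene. It was 20.6% to 28.2% for Dnajb1, Hsp90aa1, Hspe1 and Hspb1, 121% for Hspa1b and 179% for Hspa1a.

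Hspa1b encodes 1 of the pair of nearly identical stress-inducible Hsp70 proteins and is annotated at chromosome 17, positions 34956436 to 34959238, minus strand. It was at 7.89 and 11.3 CPM in WT before adhesion, 10.6 and 120 CPM in WT after adhesion, 25.3 and 19.4 CPM in E6 before adhesion, and 5.93 and 60.1 CPM in E6 after adhesion. In both cell types 1 library after adhesion, replicate 2, was more than 10 times above the other, and the other was within or below the range before adhesion, so that the adhesion groups overlapped in E6 and in WT. Those replicates had been cultured for 24 h in WT and for 12 h in E6, and had the lower thymocyte marker sum of the pair in each cell type. The log2 fold change on adhesion was 2.79 ± 1.24 (SE) in WT, with an adjusted p of 0.620, and 0.56 ± 1.16 in E6, with an adjusted p of 1, in edgeR's quasi-likelihood test. The 95% interval of the latter ran from -2.15 to 3.28, and without replicate 2 of E6 after adhesion its value was -1.91. Without replicate 2 of WT after adhesion the value in WT was 0.15. The difference between the adhesion effects, -2.22 ± 1.67, had an adjusted p of 0.988.

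Before adhesion the libraries of Hspa1b did not overlap between the cell types, a separation that 35.4% of all tested genes showed in the same direction. E6 was 1.22 ± 1.22 (SE) higher on the log2 scale, with an adjusted p of 0.643 when the spread was estimated from all 8 libraries. With the spread taken from the 4 libraries before adhesion alone, the same difference had an adjusted p of 2.751e-06 by edgeR, in a fit that called 13.1% of the genes tested. After adhesion the fitted difference was -0.998 ± 1.14, with an adjusted p of 0.592, and the libraries of E6 lay on both sides of the lower WT library.

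Hspa1a, the other inducible Hsp70 gene, is annotated 9951 bases from Hspa1b on the same strand of chromosome 17, at positions 34969190 to 34972156. It had 0 and 1 counts in WT before adhesion, 5 and 79 counts in WT after adhesion, 7 and 3 counts in E6 before adhesion, and 1 and 13 counts in E6 after adhesion. The order of the libraries after adhesion was that of Hspa1b, with replicate 2 above replicate 1 in WT and in E6. Adhesion in WT had an unadjusted p of 0.0145 and an adjusted p of 0.620 in edgeR's test, and a fold change against so few counts depends on the model's prior. Of the 100-base stretches of its transcript, the length of 1 read, 47.07% occur unchanged in Hspa1b, and 49.93% of those of Hspa1b occur in Hspa1a. Reads that fit both genes are not assigned to either by a counter of unique alignments, so the levels of both are uncertain. Summed counts of the pair left the number of members called at 0 in each of the 7 comparisons.

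Hspa8 encodes the constitutive Hsp70, HSC70, and is annotated at chromosome 9, positions 40800984 to 40810087, plus strand. It was at 3188 and 3094 CPM in WT before adhesion, 3350 and 3344 CPM in WT after adhesion, 2776 and 3171 CPM in E6 before adhesion, and 3007 and 2862 CPM in E6 after adhesion. The 8 libraries spanned 1.21-fold, and after adhesion both E6 libraries were below both WT libraries, a separation that 25.3% of all tested genes showed in this direction and that Bag3 and Hspe1 showed too. The log2 fold change between E6 and WT was -0.08 before adhesion and -0.19 ± 0.12 (SE) after it, with adjusted p of 0.788 and 0.338 by edgeR. On adhesion it was 0.09 in WT and -0.02 in E6, with 95% intervals from -0.20 to 0.38 and from -0.31 to 0.27, which lie within 1.5-fold.

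Hsph1 encodes HSP110, a large relative of Hsp70 that exchanges its nucleotide, and is annotated at chromosome 5, positions 149614287 to 149636376, minus strand. It was at 183 and 185 CPM in WT before adhesion, 199 and 165 CPM in WT after adhesion, 170 and 176 CPM in E6 before adhesion, and 168 and 161 CPM in E6 after adhesion. Its log2 fold changes were between -0.15 and -0.02 in the 4 comparisons of single conditions, with the lowest adjusted p of 0.456 between E6 and WT after adhesion by edgeR. All 4 of the 95% intervals lay within 1.5-fold, the one that reached farthest from 0 being -0.43 to 0.14.

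Dnajb1 encodes HSP40, the J-domain partner of inducible Hsp70, and is annotated at chromosome 8, positions 83608193 to 83612653, plus strand. It was at 83.9 and 90.0 CPM in WT before adhesion, 67.9 and 131 CPM in WT after adhesion, 110 and 110 CPM in E6 before adhesion, and 115 and 123 CPM in E6 after adhesion. The E6 libraries lay above both WT libraries before adhesion, as for 35.4% of all tested genes, and between the WT libraries after it. The log2 fold change between E6 and WT was 0.34 ± 0.27 (SE) before adhesion and 0.26 ± 0.27 after it, and averaged 0.30 ± 0.19, the highest of the members in that contrast, with an adjusted p of 0.301 by edgeR. Without replicate 1 of WT after adhesion the averaged value was 0.12, with an adjusted p of 0.0474 but under the fold limit. Without replicate 2 it was 0.59, with an adjusted p of 1.815e-09, and Hspa1b was called higher too, where 11.6% of all tested genes were. On adhesion the values were 0.20 ± 0.27 in WT and 0.11 ± 0.27 in E6.

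Hsp90aa1 encodes the inducible cytosolic Hsp90 and is annotated at chromosome 12, positions 110690605 to 110702728, minus strand. It was at 2153 and 2072 CPM in WT before adhesion, 3436 and 1870 CPM in WT after adhesion, 2144 and 2439 CPM in E6 before adhesion, and 2205 and 2108 CPM in E6 after adhesion. The WT libraries after adhesion were the highest and the lowest of the 8. The log2 fold change on adhesion was 0.33 ± 0.26 (SE) in WT, with an adjusted p of 0.644, and -0.09 ± 0.26 in E6, with an adjusted p of 1 by edgeR. Between E6 and WT it was 0.12 before adhesion and -0.30 after it, with adjusted p of 0.862 and 0.469.

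Hspb1 encodes HSP27, a small heat shock protein that holds unfolded proteins without ATP, and is annotated at chromosome 5, positions 135887919 to 135889563, plus strand. It was at 21.3 and 23.4 CPM in WT before adhesion, 15.3 and 37.2 CPM in WT after adhesion, 20.6 and 21.3 CPM in E6 before adhesion, and 20.1 and 21.4 CPM in E6 after adhesion. The ratio of the E6 libraries was at most 1.06 in each condition, whereas the WT libraries after adhesion were again the lowest and the highest of the 8. The log2 fold change was 0.24 ± 0.35 (SE) on adhesion in WT and -0.01 ± 0.35 in E6, and between E6 and WT -0.09 ± 0.35 before adhesion and -0.35 ± 0.35 after it, with adjusted p between 0.544 and 1 by edgeR.

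Bag3 encodes a co-chaperone that links Hsp70 and small heat shock proteins to autophagy, and is annotated at chromosome 7, positions 128523616 to 128546981, plus strand. It was at 98.7 and 114 CPM in WT before adhesion, 117 and 107 CPM in WT after adhesion, 99.8 and 102 CPM in E6 before adhesion, and 87.3 and 93.9 CPM in E6 after adhesion. Both E6 libraries after adhesion were below both WT libraries after adhesion, as for 25.3% of all tested genes. The log2 fold change between E6 and WT was -0.31 ± 0.12 (SE) after adhesion, with an unadjusted p of 0.0345 and an adjusted p of 0.137 by edgeR, and -0.08 ± 0.12 before adhesion, with an adjusted p of 0.786. On adhesion it was 0.08 ± 0.12 in WT and -0.15 ± 0.12 in E6.

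Hspd1 and Hspe1 encode HSP60 and HSP10, the barrel and the lid of the mitochondrial chaperonin, and lie head to head on chromosome 1, Hspd1 on the minus strand from 55077835 to 55088243 and Hspe1 on the plus strand from 55088132 to 55091307. Their gene models overlap by 112 bases, and the strand setting of the counting is not given in the sources used here. Hspe1 was at 235 and 212 CPM in WT before adhesion, 359 and 213 CPM in WT after adhesion, 215 and 214 CPM in E6 before adhesion, and 181 and 185 CPM in E6 after adhesion. Hspd1 was at 1246 and 1133 CPM in WT before adhesion, 1479 and 1032 CPM in WT after adhesion, 1111 and 1182 CPM in E6 before adhesion, and 1083 and 1023 CPM in E6 after adhesion. Replicate 1 of WT after adhesion was the highest of the 8 libraries for both genes. For Hspe1 both E6 libraries after adhesion were below both WT libraries after adhesion, as for 25.3% of all tested genes. For E6 against WT the log2 fold change of Hspe1 was -0.64 ± 0.22 (SE) after adhesion, with an unadjusted p of 0.0225 and an adjusted p of 0.109 by edgeR. It was -0.06 ± 0.22 before adhesion, and averaged -0.35 ± 0.16, the lowest of the members, with an adjusted p of 0.158. Without replicate 1 of WT after adhesion the value after adhesion was -0.19 and the averaged value -0.12, and without replicate 2 they were -0.95 and -0.50. For Hspd1 the values between E6 and WT were -0.05 ± 0.18 before adhesion and -0.25 ± 0.18 after it, with adjusted p of 0.918 and 0.375. On adhesion, Hspe1 was at 0.36 ± 0.22 in WT and -0.23 ± 0.22 in E6, and Hspd1 at 0.08 ± 0.18 and -0.12 ± 0.18, with adjusted p between 0.620 and 1.

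**Figure D2:**
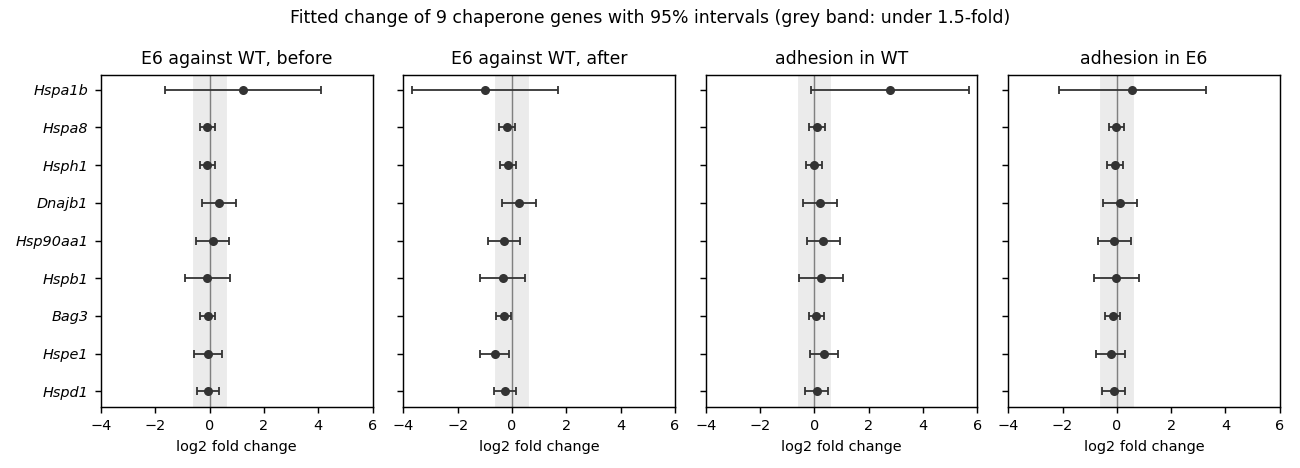
Fitted log2 fold change (horizontal axes) of 9 of the 10 genes with its 95% interval, for E6 against WT before and after adhesion and for adhesion in WT and in E6. The grey band marks changes under 1.5-fold. The interval of Hspa1b is the widest in each panel, and those of Hspe1 and Bag3 in the second panel, from -1.17 to -0.12 and from -0.58 to -0.03, lie below 0. Hspa1a is left out because of its low counts.

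The 2 WT libraries after adhesion departed from WT before adhesion in different members. They departed in the same direction for Hspa1a, Hspa1b, Hspa8 and Bag3, and in opposite directions for the other 6. Measured from the mean of WT before adhesion on the log2 scale, replicate 2 was 4.68 higher for Hspa1a, from few counts, 3.66 for Hspa1b, 0.73 for Hspb1 and 0.59 for Dnajb1, and between -0.20 and 0.09 for Hspa8, Hsph1, Hsp90aa1, Bag3, Hspe1 and Hspd1. Replicate 1 was 1.63 higher for Hspa1a, 0.70 for Hsp90aa1, 0.69 for Hspe1 and 0.32 for Hspd1, while it stood at -0.55 for Hspb1, -0.36 for Dnajb1 and 0.17 for Hspa1b. Leaving out replicate 1, edgeR called 4 members as higher on adhesion in WT, Hspa1a, Hspa1b, Dnajb1 and Hspb1, where 1.49% of all tested genes were called higher. Leaving out replicate 2, it called Hsp90aa1 and Hspe1 as higher, where 13.8% of all tested genes were. In these fits 1 library stands for its condition and is assumed to vary like the others. No member was called in both.

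After adhesion, 3 members, Hspa1a, Hspa1b and Hspb1, were called lower in E6 without replicate 1 of WT, where 6.95% of all tested genes were called lower. Without replicate 2 of WT, Hsp90aa1 and Hspe1 were called lower, against 16.1% of all genes, and Hspa1b and Dnajb1 higher, against 21.6%. Hspa1b thus changed direction with the WT library kept, from -1.84 to 1.66 on the log2 scale. The difference of the adhesion effects was called for Hspa1a, Hspa1b and Hspb1 without replicate 1 and for Hsp90aa1 and Hspe1 without replicate 2, each below 0, where 0.572% and 10.6% of all tested genes were called below 0.

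Each library was also corrected for the relation of its log2 CPM, taken relative to the mean of all libraries, to GC content. Replicate 1 then stood at 0.44 instead of 0.70 for Hsp90aa1 (43.7% GC), 0.51 instead of 0.69 for Hspe1 (45.5% GC), and -0.03 instead of -0.55 for Hspb1 (61.7% GC), relative to WT before adhesion. The correction moved it away from WT before adhesion for Bag3 (56.1% GC), to 0.53 instead of 0.14, for Hspa1b (58.1% GC), to 0.63 instead of 0.17, and for Hspa1a (58.9% GC), to 2.11 instead of 1.63. In replicate 2, Hspa1b stood at 3.54 instead of 3.66, Dnajb1 at 0.55 instead of 0.59 and Hspb1 at 0.55 instead of 0.73. No member passed the test in any of the 7 comparisons after the correction.

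**Figure D3:**
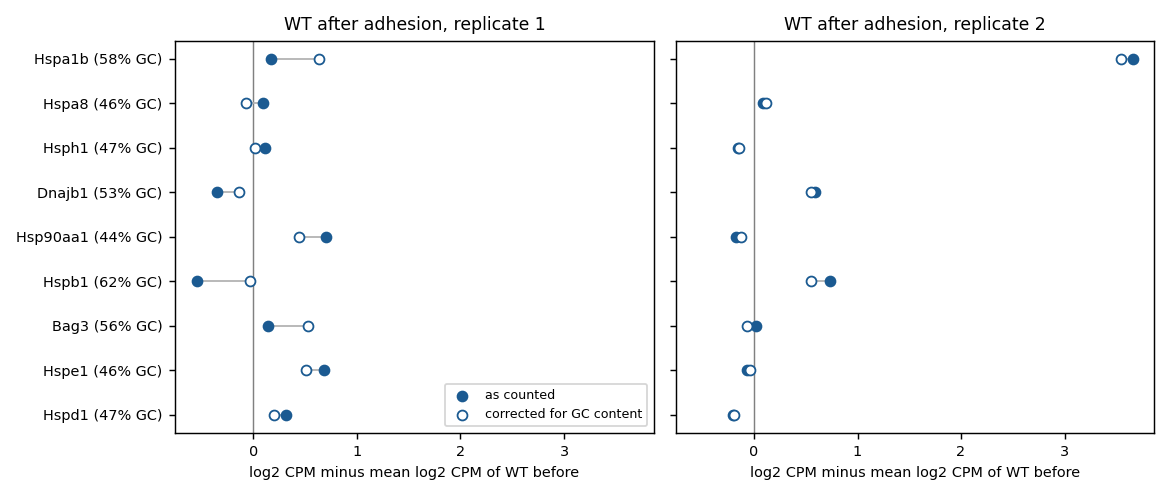
Log2 CPM of 9 of the 10 genes in each WT library after adhesion minus the mean of the WT libraries before adhesion (horizontal axes, shared), as counted (filled) and corrected for GC content (open). The GC content of each gene stands beside its name. The correction moves Hspb1 in replicate 1 from -0.55 to -0.03 and leaves Hspa1b in replicate 2 above 3.5.

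The wider chaperone network was described from 9 lists with 114 genes, of which 103 were tested. Averaged over both conditions, 4 of the 103 were called lower in E6 than in WT and 1 higher (4.85%, against 11.3% of all tested genes). Hsf2, the gene of a heat shock factor related to HSF1, was at 19.0 to 30.2 CPM in the 4 WT libraries and at 12.1 to 13.2 CPM in the 4 E6 libraries, a log2 fold change of -0.80 ± 0.15 (SE) with an adjusted p of 0.0104 by edgeR. The Hsp70 gene Hspa2 was at 7.30 to 9.44 CPM in WT and 4.54 to 5.62 CPM in E6, and the HSP110 gene Hspa4l at 59.95 to 84.5 CPM and 40.0 to 44.1 CPM. Their log2 fold changes were -0.72 ± 0.14 and -0.68 ± 0.12. For these 3 genes each E6 library was below each WT library, as for 15.5% of all tested genes.

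Among the small heat shock protein genes, Hspb8, whose product works with BAG3, was at 7.17 to 24.9 CPM in WT and at 49.0 to 59.4 CPM in E6, and rose by 1.503 ± 0.31 (SE) on the log2 scale, with an adjusted p of 0.0154 by edgeR. Hspb6 was at 16.7 to 38.6 CPM in WT and 10.02 to 13.4 CPM in E6, with a log2 fold change of -0.99 ± 0.23 and an adjusted p of 0.0226. The WT and E6 libraries of both did not overlap, and 15.7% of all tested genes were separated with E6 higher. Of the 5 calls each was lost in 4 to 6 of the 8 fits that left out 1 library, with adjusted p up to 0.0984, while the log2 fold changes kept their direction throughout. For Hspb6 and Hspb8 these were the fits without any 1 of the 4 libraries before adhesion or the E6 libraries after it, and for Hsf2 those without replicate 1 of WT before adhesion or any E6 library. Hspa2 lost its call without replicate 1 of WT before adhesion, replicate 2 of E6 before adhesion or either E6 library after it. Hspa4l lost it without replicate 1 of WT before adhesion, of WT after adhesion or of E6 before adhesion, or without either E6 library after it, and it was at -0.54 after the GC correction, under the fold limit. In the lists with no called gene, the largest differences were those of Ppid (-0.54), an Hsp90 co-chaperone gene, Cct2 (-0.47), a subunit of the cytosolic chaperonin, and Grpel2 (0.54), an exchange factor of mitochondrial Hsp70, whose adjusted p of 0.0272, 0.0098 and 0.0063 went with changes under 1.5-fold, and those of Hsp90b1 (-0.53) and Bag1 (-0.21), with adjusted p of 0.0577 and 0.226. Among the J-domain genes it was that of Dnajc6, which is near 0 counts.

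After adhesion, 5 of the 103 genes were called lower in E6 than in WT and none higher, 4.85% against 8.91% of all tested genes. They were Hsf2, Hspa2 and Hspa4l again, which share the WT libraries with the averaged contrast, and the Hsp90 co-chaperone genes Ahsa2 (log2 fold change -0.68 ± 0.13, SE) and Ptges3 (-0.63 ± 0.15), with adjusted p of 0.0214 to 0.0415 by edgeR. Each of these calls was lost in 6 or 7 of the 8 fits without 1 library, including every fit without a library other than those of WT after adhesion, with adjusted p up to 0.277, and without replicate 1 of WT after adhesion Hsf2, Hspa4l and Ptges3 were at -0.57, -0.43 and -0.40, under the fold limit. With only the 4 libraries compared, none of these 5 genes was called, with adjusted p of 0.188 to 0.265 by edgeR. That fit called 0 of all genes tested. After the GC correction Ahsa2, Ptges3 and Hspa4l were at -0.52, -0.44 and -0.49, under the fold limit, while Hsf2 and Hspa2 kept their calls. Before adhesion 1 of the 103 genes was called (0.971%, against 5.01% of all tested genes). This was Creld2, an endoplasmic reticulum protein gene, at 20.2 and 22.5 CPM in WT and 34.7 and 31.7 CPM in E6. Its log2 fold change was 0.64 ± 0.14, with an adjusted p of 0.0412 by edgeR. The call was lost without any 1 of the libraries before adhesion or of E6 after it, with log2 fold changes between 0.56 and 0.71. By edgeR the adjusted p was 0.0572 without the filter, 0.0735 with the replicate block and 0.0945 with culture time as a covariate.

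For adhesion in WT none of the 103 genes was called by edgeR. The gene with the largest log2 fold change in each list was Dnajb9 (0.91 ± 0.40, SE), Hspb2 (-0.77 ± 0.35), the ubiquitin gene Ubb (-0.65 ± 0.61), Hspa4 (0.43 ± 0.28), the constitutive Hsp90 gene Hsp90ab1 (0.42 ± 0.26), Bag6 (-0.34 ± 0.23), Clpp (-0.33 ± 0.25) and Cct4 (-0.23 ± 0.15), beside Dnajc6, with adjusted p between 0.620 and 0.673. Hsp90ab1 was highest in the same library as Hsp90aa1, with 6047 and 5873 CPM in WT before adhesion, 10321 and 5625 CPM in WT after adhesion, 5038 and 5381 CPM in E6 before adhesion and 5070 and 4930 CPM in E6 after adhesion. The values of Ubb, Hspa4, Hsp90ab1 and Clpp changed sign when replicate 1 of WT after adhesion was left out. Without replicate 2 they were -2.46, 0.84, 0.78 and -0.84. Those of Dnajb9, Hspb2, Bag6 and Cct4 kept their sign whichever library was left out, but all except Hspb2 came close to 0. Their ranges were 0.071 to 1.43 for Dnajb9, -1.57 to -0.31 for Hspb2, -0.81 to -0.0038 for Bag6 and -0.47 to -0.050 for Cct4. In E6 1 of the 103 genes was called (0.971%, against 2% of all tested genes), Dnajc6, which encodes the J-domain protein auxilin that uncoats clathrin vesicles. That call was lost without the filter, with the replicate block and with culture time as a covariate, with adjusted p of 0.0798, 0.113 and 0.0992 by edgeR. With GC correction and the block the adjusted p was 0.106. Dnajc6 was at 0 CPM in all 4 libraries before adhesion, at 0.142 and 0.435 CPM in WT after adhesion and at 1.4965 and 1.31 CPM in E6 after adhesion, highest in the group with the highest thymocyte marker sum, whose part was not tested. Leaving out any 1 of the libraries before adhesion or of E6 after adhesion took its adjusted p to between 0.073 and 0.358. In the list of the cytosolic chaperonin CCT and prefoldin, 14 of 14 genes tested were below 0 on adhesion in E6, with a median of -0.11 against -0.02 for all genes, and none was called. Among the endoplasmic reticulum chaperones, 19 of 21 were below 0 with the same median to 2 decimals, and none was called. For adhesion in WT these lists had medians of -0.08 and 0.05. The largest values in the lists with no called gene were -0.70 ± 0.25 (SE) for Herpud1, -0.35 ± 0.29 for Hscb, 0.27 ± 0.33 for Hspb6, -0.23 ± 0.21 for Pfdn4, -0.21 ± 0.41 for Hspbp1, -0.21 ± 0.12 for Ahsa1 and -0.18 ± 0.11 for Bag4, with adjusted p of 0.507 for Herpud1 and 1 for the others by edgeR. Rgs2, in the list of regulators, was at 0 and 0.0536 CPM in E6 before adhesion and at 1.02 and 0.597 CPM after it, with an adjusted p of 0.202.

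**Figure D4:**
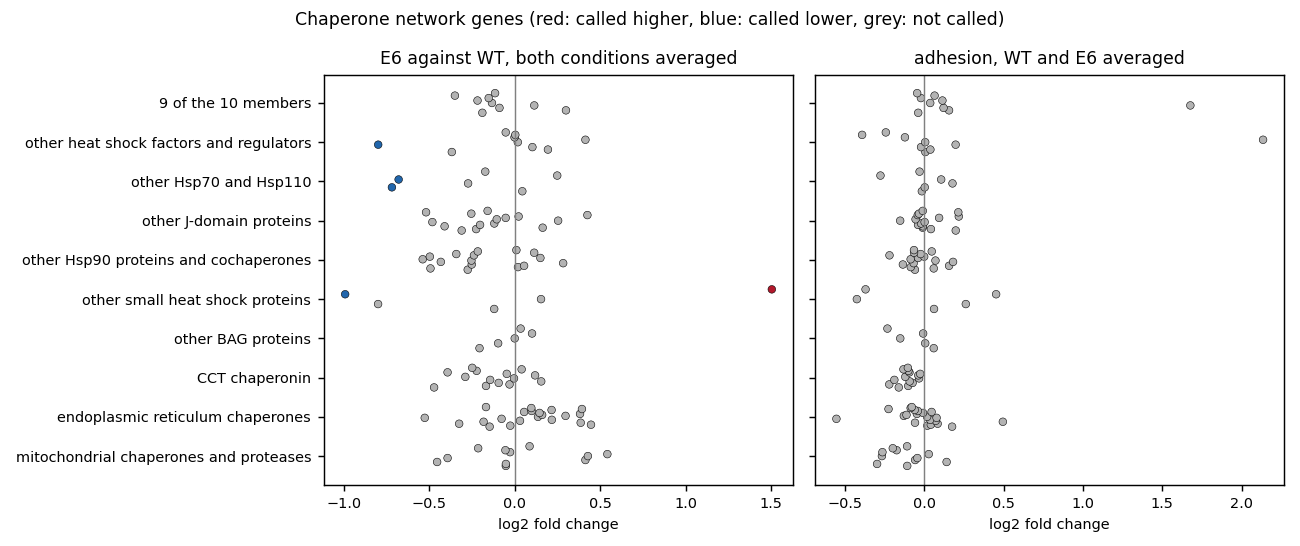
Log2 fold change (horizontal axes, different ranges) of the members and of the genes of the 9 chaperone lists (rows), for E6 against WT and for adhesion, each averaged. Blue points were called lower, red points higher and grey points were not called. The called genes shown are Hsf2, Hspa2, Hspa4l and Hspb6 as lower and Hspb8 as higher between E6 and WT. Hspa1a and Dnajc6, with libraries at 0, are left out.

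Among 10283 other genes whose log2 CPM averaged 1 or more, those whose levels over the 8 libraries were most like the mean z-score of the members were Endov, Ccdc91, D030056L22Rik, Sap30bp, Plk4 and Ttc9c, with Pearson's r from 0.958 down to 0.926 as a description of 8 libraries that share their depth and GC relation. That mean z-score was 0.716 and 0.567 in the 2 libraries of WT after adhesion and between -0.601 and 0.071 in the other libraries. It averages members that did not share 1 profile. Pearson's r between pairs of members ran from -0.962 (Hsph1 and Dnajb1) to 0.931 (Hsph1 and Hspd1). Endov ranged from 17.5 CPM in E6 after adhesion to 25.5 CPM in WT after adhesion.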

How the data were processed

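RNA of the WT mTEC line and of clone E6, before and after thymocyte adhesion, was sequenced by the authors as paired-end reads of 100 bases, aligned to mm10 (GRCm38) with STAR 2.5.0a and counted with HTSeq, per the submitters' processing notes and the study's methods. The deposited counts of reads per gene symbol were not normalized. The annotation and strand setting of the counting are not given in the sources used here. The rows of HTSeq for reads on no gene, on several genes or aligned more than once stayed out of library sizes and held 21.2% to 33.3% of the counted reads. In replicate 1 of E6 before adhesion, 18 symbols turned into dates were restored from the shared gene order. The protocol text of E6 before adhesion mentions co-culture, against its titles and source names, which were used for grouping.

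Counts were fitted with edgeR 4.0.16 in R 4.3.3 (filterByExpr, TMM scaling, 1 mean per condition, all 8 libraries) and tested by quasi-likelihood in 7 contrasts. Genes were called at a Benjamini-Hochberg adjusted p under 0.05 and a fold change of at least 1.5. Standard errors are the log2 fold change divided by the square root of F, and CPM are scaled by TMM. Log2 CPM used a prior count of 2. Gene positions, lengths and GC content came from GENCODE vM21 and upstream sequences from RefSeq, both on GRCm38, with Python 3.11.15. Alternatives were RLE size factors, DESeq2 1.42.0, no filter, a replicate block, no fold limit, only the 4 libraries compared, culture time as a covariate, Hspa1a and Hspa1b summed, and each library left out. The GC correction (lowess, span 0.3, limma 3.58.1), alone or with the block, was added after seeing the data. The procedure was tested on simulated data.

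The members and lists were chosen with earlier results of these data known. Named were all members, Aire, the called genes of the lists (at most 3 per list and contrast) and the 6 genes most like the mean z-score of the members. In lists with none called, the gene with the largest change was named for E6 against WT averaged and for adhesion in WT and in E6 only. Listed symbols with no value here were not analysed here.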

Additional observations from a re-analysis of the deposited data

Results flagged for a closer look

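In each group of 4 libraries (WT, E6, before or after adhesion), a library was looked at again when its gap to the nearest other library was above Dixon's 95% critical value, as a share of the range, and chance gives about 1 in 20 such groups. Of 40 groups, 5 had such a library, and 4 of them were WT libraries after adhesion. Each group pools different conditions, so the rate of 1 in 20 need not hold. The groups share libraries and are not independent of each other. Among the WT libraries, replicate 2 after adhesion stood apart with 3.82 CPM of Hspa1a and 120.48 CPM of Hspa1b, and replicate 1 after adhesion with 359.34 CPM of Hspe1. Among the libraries after adhesion, that replicate 1 stood apart with 1478.6 CPM of Hspd1. Among the libraries before adhesion, replicate 1 of WT stood apart with 234.89 CPM of Hspe1.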

How the results depend on the processing

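The number of members called stayed at 0 in each comparison under RLE size factors, DESeq2, no filter, no fold limit, culture time as a covariate, Hspa1a and Hspa1b summed and the GC correction, which was chosen after seeing the data. It became 1 (Hspa1b) between E6 and WT before adhesion with only the 4 libraries compared. Leaving out 1 library gave 0 to 2 between E6 and WT on average, 0 to 4 after adhesion, 0 to 4 for adhesion in WT, 0 to 2 for adhesion averaged and 0 to 3 for the difference of the adhesion effects, with all values above 0 from the fits without a library of WT after adhesion. It gave 0 to 0 between E6 and WT before adhesion and for adhesion in E6. For adhesion averaged, the called members were Hspa1a and Hspa1b, with log2 fold changes of 3.51 and 2.13 without replicate 1 of WT after adhesion. Without replicate 2 they were at 1.79 and 0.37. In such fits 1 library stands for its condition. With the replicate block the number of members called was 0 in all 7. The labels do not say what libraries with the same replicate number share across conditions. Within E6 the number also goes with culture time, 24 h in replicate 1 and 12 h in replicate 2, before as well as after adhesion. Deviations from the group means correlated at 0.222 between WT before and after adhesion and at -0.079 to 0.023 in the other 5 pairs of conditions, over 9768 genes.

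Of the members' 451 values under alternatives other than leaving out a library, 12 changed sign, all of log2 fold changes that had not passed the test. With culture time as a covariate, Hspe1 was at 0.076 and Hspd1 at 0.034 between E6 and WT before adhesion, and Hsph1 at 0.024 and Hspb1 at -0.012 for adhesion in WT. For adhesion in E6, Hspa1b was at -0.28 with the replicate block and at -0.11 with the GC correction and the block. Hspa8 was at 0.0026 and Hspb1 at 0.0064 without the filter, and at 0.0081 and 0.0113 with only the 4 libraries compared. Hspb1 was at 0.049 with the GC correction and at 0.051 with the block added. Leaving out 1 library changed the sign of 29 of 368 values. These log2 fold changes had the following lowest and highest values. Between E6 and WT before adhesion the ranges were Bag3 -0.18 to 0.032, Hspa8 -0.18 to 0.016, Hspd1 -0.12 to 0.017 and Hspe1 -0.13 to 0.017. For adhesion in WT the ranges were Bag3 -0.028 to 0.18, Dnajb1 -0.37 to 0.59, Hsp90aa1 -0.18 to 0.69, Hspb1 -0.56 to 0.73, Hspd1 -0.21 to 0.30, Hspe1 -0.074 to 0.67 and Hsph1 -0.16 to 0.097, and among the other chaperone genes Ubb -2.46 to 0.095, Hspa4 -0.17 to 0.84, Hsp90ab1 -0.088 to 0.78 and Clpp -0.84 to 0.022. Between E6 and WT after adhesion the ranges were Dnajb1 -0.11 to 0.83, Hsp90aa1 -0.65 to 0.24, Hspa1a -5.01 to 0.26, Hspa1b -3.47 to 1.66, Hspb1 -0.81 to 0.47, Hspd1 -0.47 to 0.060 and Hsph1 -0.25 to 0.022. For adhesion in E6 the ranges were Hsp90aa1 -0.18 to 0.0061, Hspa1a -2.23 to 1.34, Hspa1b -1.91 to 1.43, Hspa8 -0.12 to 0.078 and Hspb1 -0.061 to 0.026. For the difference of the adhesion effects the range of Hspa1b was -4.70 to 0.43. The cause was not tested. Of 329 values of the other chaperone genes under alternatives other than leaving out a library, 33 lost their call and 7 gained one, with none changed in sign. At 2 libraries per condition, the 95% intervals of 4 of 10 members lay within 1.5-fold for adhesion in WT, as did 4 in E6.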

Other observations

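The genes most like Hspa1b over the 8 libraries, chosen after its values were seen, were Zfp503, with a Pearson's r of 0.907, and Fgd1, with 0.8997, as a description. In replicates 1 and 2 of WT after adhesion, Zfp503 was at 13.8 and 15.8 CPM and Fgd1 at 44.6 and 49.6 CPM, a far smaller step than that of Hspa1b.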
